A study of Homo sapiens with 18 samples.

Results

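The insulin-like growth factor binding proteins (IGFBPs) are described here across 3 lung cancer cell lines with and without knockdown of SYK, a cytoplasmic tyrosine kinase. The 7 genes IGFBP1 to IGFBP7 were taken by name from tables that list 58302 genes. The family was chosen by a measured value, the lower level of IGFBP5 in PC-9 cells with SYK knockdown, so every nc and shSYK comparison in PC-9 is given as a description with no test. EBC-1, a squamous cell lung cancer line, carries MET amplification, and PC-9 and HCC827, lung adenocarcinoma lines, carry an EGFR exon 19 deletion. Gene alteration and tumour type thus differ together between EBC-1 and the other lines, and their parts cannot be told apart. All 3 are established human lung cancer lines. Each line was infected with lentivirus carrying either a negative control shRNA (nc) or a single shRNA against SYK (shSYK, TRCN0000003166), with 3 RNA libraries for each of the 6 groups. Only 1 hairpin was used, so an effect of SYK loss and another effect of that hairpin cannot be told apart.

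IGFBPs are secreted proteins that bind the growth factors IGF1 and IGF2 in the blood and around cells. They carry and store the ligands and control how much of them reaches the receptor IGF1R, and proteases release the ligand by cleaving them. Several members also bind matrix, integrins or other receptors and act without IGF. Tumour cells of epithelial origin commonly secrete a mixture of them.

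SYK mRNA was below nc in all lines, by an unequal amount. In EBC-1, SYK stood at 15.2, 13.1 and 14.5 FPKM (fragments mapped to the gene, scaled to its length and to the depth of the library) in nc and at 7.63, 7.25 and 7.41 FPKM in shSYK, 52.3% of the nc mean (limma adjusted p = 0.000271). In HCC827, it stood at 9.05, 8.45 and 9.75 FPKM in nc and at 2.46, 3.16 and 3.36 FPKM in shSYK, 32.9% of the nc mean (limma adjusted p = 0.000197). In PC-9 the shSYK mean was 32.1% of the nc mean, and 34.2% without nc replicate 1. The nc and shSYK libraries did not overlap in any of the 3 lines, and the difference in depth of knockdown between EBC-1 and HCC827 was itself past the threshold (0.49 on the log2 scale, limma adjusted p = 0.0124).

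The 18 libraries held 7920099 to 15729103 reads on genes. All 5 epithelial markers were present in every line. Of 6 fibroblast markers, COL3A1, DCN and LUM were at or under 3 reads in every library, COL1A1 was detected in all lines, and COL1A2 and PDGFRB reached at most 6 and 48 reads. The summed level of the 6 was 2.61 to 2.89 FPKM in EBC-1 nc and 1.82 to 2.37 FPKM in shSYK, 0.958 to 1.15 and 1.32 to 2.19 FPKM in HCC827, and 5.49 to 8.37 and 6.16 to 7.62 FPKM in PC-9. It thus moved with shSYK in EBC-1 and HCC827, in opposite directions and with no overlap, and its part in the results was not tested. The summed level of 4 blood markers overlapped in EBC-1 and PC-9. In HCC827, where CD14 alone exceeded 3 reads, it was 0.632 to 1.64 FPKM in nc and 0.159 to 0.583 FPKM in shSYK. The part of that shift was not tested either. PC-9 nc replicates 1 and 2 were the least alike pair, at r = 0.96 across genes. The other replicate pairs reached 0.981 to 0.991. PC-9 nc replicate 3 correlated at 0.981 with replicate 1 and at 0.985 with replicate 2. The low value thus belongs to a pair and does not single out replicate 1. The PC-9 percentages of nc are given with and without nc replicate 1. Percentages without nc replicate 2 were not computed and may move the other way. Nothing in the labels says that libraries came from separate cultures, so p-values measure only the spread between these libraries, which may be technical.

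Each cell line expressed its own set of members. EBC-1 expressed IGFBP3, IGFBP4 and IGFBP6 at high levels and IGFBP7 at a low level. PC-9 expressed IGFBP1 to IGFBP6 and lacked IGFBP7, and HCC827 expressed IGFBP1, IGFBP2, IGFBP3, IGFBP4 and IGFBP6. A mean of at least 1 FPKM over the 6 libraries of a line, the minimum for testing, was reached by 4 of 7 members among EBC-1 libraries, 6 among PC-9 and 5 among HCC827 libraries. The tables of the 3 lines were normalised separately, so levels set side by side across lines are a description.

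**Figure D1:**
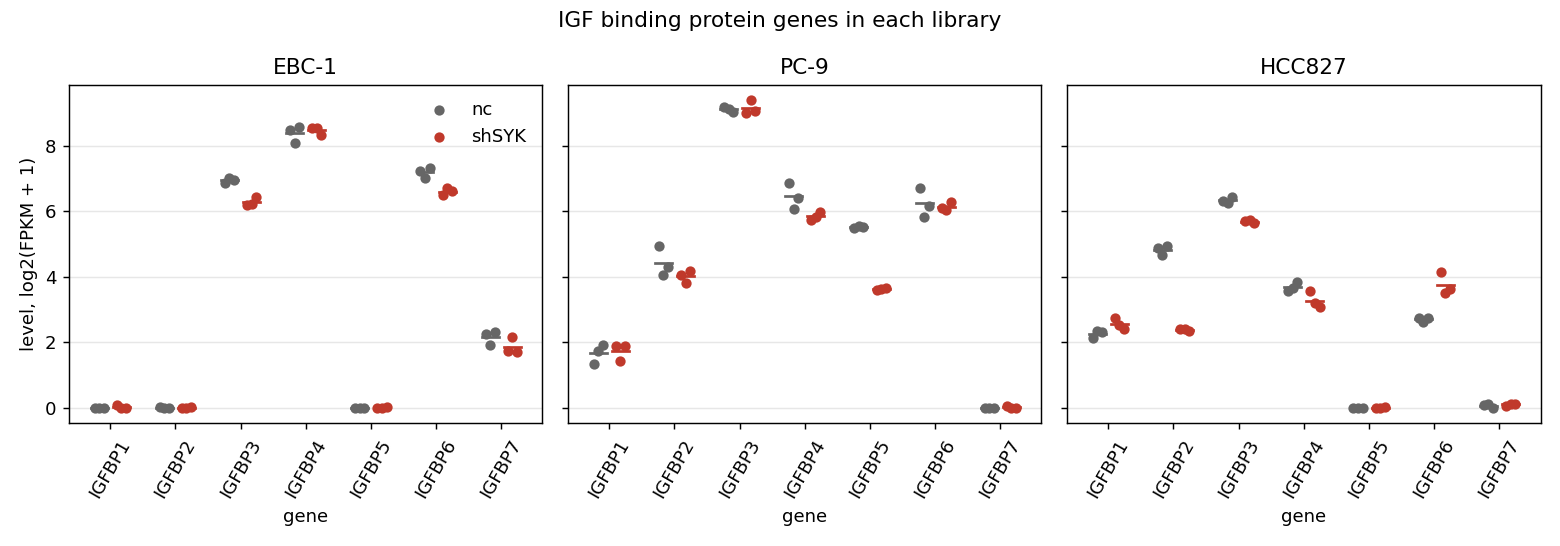
Level of each IGFBP gene in each library, as log2(FPKM + 1) on the vertical axis, in EBC-1, PC-9 and HCC827. Grey points are the 3 nc libraries, red points the 3 shSYK libraries and short lines the group means. IGFBP5 is clearly above zero in PC-9 alone, and IGFBP2 in HCC827 and IGFBP5 in PC-9 show the widest gaps between nc and shSYK.

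The members did not move as 1 block with SYK knockdown. In EBC-1, 2 of the 4 members tested fell (IGFBP3 and IGFBP6) and none rose, where 44.7% of all 12430 genes tested were called, 23.1% higher and 21.6% lower. In HCC827, 3 of the 5 members tested fell (IGFBP2, IGFBP3 and IGFBP4) and 1 rose (IGFBP6), the fall of IGFBP4 being lost in 11 of 15 alternative analyses, where 38% of all 11999 genes were called, 17.2% higher and 20.7% lower. The share called in EBC-1 was thus near that of all genes. By overlap of libraries instead of the test, EBC-1 had 2 members wholly below nc and 0 above, and HCC827 had 2 below (IGFBP2 and IGFBP3) and 2 above (IGFBP1 and IGFBP6). The share of all genes by overlap was not computed for EBC-1 and HCC827, so nothing is read from these overlap counts. The median change of the tested members was -0.45 on the log2(FPKM + 1) scale in EBC-1 against 0.009 over all genes, and -0.42 in HCC827 against -0.0053. In PC-9, 2 of the 6 members past the minimum had shSYK libraries wholly below nc and 0 wholly above, beside 12.3% of all genes below and 11.4% above. That PC-9 contrast chose the family, and nothing is read from its count.

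**Figure D2:**
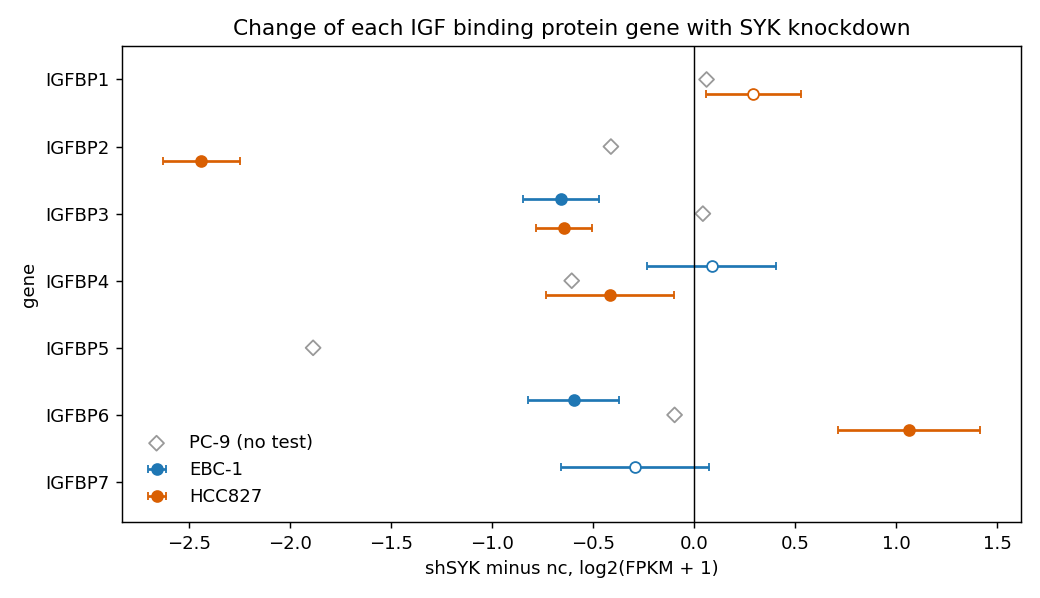
Change of each IGFBP gene, as shSYK minus nc on the log2(FPKM + 1) scale, with 95% confidence intervals from limma for EBC-1 (blue) and HCC827 (orange). Filled circles passed an adjusted p of 0.05, open circles did not, and grey diamonds are PC-9 values with no test. IGFBP3 sits at -0.66 in EBC-1 and -0.64 in HCC827, whereas IGFBP6 sits on opposite sides of zero in those lines.

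IGFBP2 and IGFBP5 lie tail to tail on chromosome 2 (hg38), IGFBP2 at chr2:216632828-216664436 on the plus strand and IGFBP5 at chr2:216672105-216695525 on the minus strand, 7668 bases apart. Their proximal promoters, the 250 bases before the RefSeq start (GRCh38.p14), are shown because these neighbours had the deepest reductions of the family, each in a different cell line. The windows are chr2:216633170-216633419 for IGFBP2 and chr2:216695550-216695799 for IGFBP5, each written 5′ to 3′ on the strand of its gene, and capitals mark the GC box GGGCGG or its complement CCGCCC, the core letters bound by Sp1.
IGFBP2: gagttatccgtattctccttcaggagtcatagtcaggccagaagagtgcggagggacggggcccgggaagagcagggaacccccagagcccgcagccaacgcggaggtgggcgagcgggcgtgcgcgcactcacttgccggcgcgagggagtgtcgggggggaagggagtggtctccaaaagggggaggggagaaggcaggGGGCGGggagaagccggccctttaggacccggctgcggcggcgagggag
IGFBP5: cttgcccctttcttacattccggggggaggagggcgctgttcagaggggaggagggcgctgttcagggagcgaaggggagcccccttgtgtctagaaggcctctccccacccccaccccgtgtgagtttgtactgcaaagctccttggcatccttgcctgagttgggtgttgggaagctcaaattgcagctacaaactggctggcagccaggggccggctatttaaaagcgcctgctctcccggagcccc
The IGFBP2 window was 69.2% G or C and held 1 GC box at 49 bases before the start, in letters that also occur in 42.64% of the 35116 promoter windows searched on both strands. IGFBP2 has 3 listed start windows, and that of the canonical transcript is shown. The IGFBP5 window was 61.2% G or C and held no GC box. Neither held the TATA letters TATANA, found in 17.67% of windows, or the AP-1 letters TGANTCA, found in 6.573%. Only these exact letters were searched, so variant forms of either site would be missed.

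IGFBP5 (ENSG00000115461), a member that binds extracellular matrix and is known from mammary gland, muscle and bone, was expressed in PC-9 alone. In PC-9 nc it stood at 44.2, 45.7 and 44.9 FPKM, and in PC-9 shSYK at 11.2, 11.4 and 11.7 FPKM. Replicates lay close together in both groups, and the groups were far apart. The shSYK mean (11.4 ± 0.265 FPKM, SD, n = 3) was 25.4% of the nc mean (44.9 ± 0.758 FPKM), 3.94-fold lower, from 764 to 3423 reads per library, and 25.2% without nc replicate 1. In EBC-1 and in HCC827 alike, 5 of 6 libraries had 0 IGFBP5 reads and the other had 1. At 3 reads, the limit that a count of 0 allows, these libraries could hide at most 0.0285 to 0.0398 FPKM in EBC-1 and 0.0397 to 0.0644 FPKM in HCC827, counting error only. An annotated antisense transcript, AC007563.2, overlaps IGFBP5 and had 0 reads in all 18 libraries.

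Some lineage markers also moved in PC-9. The summed level of 3 endothelial markers was 15.0 to 17.1 FPKM in nc and 6.62 to 7.91 FPKM in shSYK. PECAM1, an adhesion molecule of endothelium and platelets, accounted for the move, at 13.4 ± 0.903 FPKM in nc and 4.98 ± 0.601 FPKM in shSYK (n = 3 each), whereas CDH5 stood at 2.42 and 2.38 FPKM and VWF at 0.124 and 0.0825 FPKM. Without nc replicate 1, PECAM1 in shSYK was 38.6% of nc, against 37.1% with it. The endothelial sum was also lower with shSYK, with no overlap, in the lines that lacked IGFBP5, but at low levels. It was 0.150 to 0.235 FPKM in EBC-1 nc and 0.0734 to 0.124 FPKM in shSYK. In HCC827 it was 0.106 to 0.192 and 0.0581 to 0.0746 FPKM. PECAM1 reached at most 23 reads in EBC-1 and 5 in HCC827. KRT5, a keratin of basal and squamous cells, stood at 20.7 ± 2.92 FPKM in nc and 138 ± 1.81 FPKM in shSYK, 6.7-fold higher with all libraries and 719% of nc without nc replicate 1. The other squamous markers listed did not rise with KRT5. TP63 stood at 0.0722 and 0.046 FPKM in nc and shSYK and KRT14 at 0.1275 and 0.0781 FPKM, both with overlap. The part of these marker shifts in the IGFBP5 result was not tested, and in bulk RNA fewer cells of a type and less RNA per cell cannot be told apart.

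IGFBP2 (ENSG00000115457), which carries an integrin-binding motif and is raised in many tumours, showed its large reduction in HCC827. HCC827 nc held 28.5, 24.3 and 29.8 FPKM and HCC827 shSYK 4.33, 4.30 and 4.09 FPKM. The 2 groups were well separated and the shSYK libraries nearly equal. The mean went from 27.5 ± 2.91 to 4.24 ± 0.128 FPKM, 15.4% of nc and 6.49-fold lower (log2 change -2.44, SE 0.081, 95% CI -2.63 to -2.25, limma adjusted p = 1.77e-05), from 206 to 1532 reads per library. In PC-9 the values overlapped, at 29.6, 15.5 and 18.8 FPKM in nc and 15.8, 13.1 and 16.95 FPKM in shSYK. The PC-9 shSYK mean was 71.7% of nc with all libraries and 89.0% without nc replicate 1, the highest of the 6. The overlap came from nc replicate 2, which lay below shSYK replicates 1 and 3. Over omissions of single libraries the PC-9 change ran from -0.60 to -0.16 on the log2 scale. In EBC-1, IGFBP2 had at most 1 read in any library. The neighbours on chromosome 2 thus differed between lines: both were expressed in PC-9, where the IGFBP5 groups were apart and the IGFBP2 groups overlapped, only IGFBP2 was expressed in HCC827, and neither in EBC-1.

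In HCC827, 3 markers of lung adenocarcinoma (NKX2-1, NAPSA and SFTPB) summed to 140 to 143 FPKM in nc and 85.7 to 95.1 FPKM in shSYK. The summed level of the 5 epithelial markers was 3147 to 3519 FPKM in HCC827 nc and 2591 to 3008 FPKM in shSYK, and 1197 to 1434 FPKM in EBC-1 nc and 1137 to 1192 FPKM in shSYK. In PC-9 the sum overlapped, at 2707 to 4683 FPKM in nc and 3324 to 3744 FPKM in shSYK. Single markers differed. CDH1 was wholly below nc in every line, KRT19 in EBC-1 and HCC827, and KRT18 in EBC-1. EPCAM was wholly above nc in EBC-1 and PC-9. The other cases overlapped, among them KRT8 in every line. The part of these shifts in the IGFBP results was not tested. The sum of the adenocarcinoma markers was low in the other lines but also lower with shSYK, with no overlap. It stood at 0.915 to 0.962 FPKM in EBC-1 nc and 0.282 to 0.683 FPKM in shSYK, and at 2.08 to 2.73 and 1.59 to 2.05 FPKM in PC-9, where NKX2-1 made up most of the sum. Not every marker followed the sum. SFTPB in PC-9 was higher with shSYK, at 0.381 against 0.0926 FPKM in nc, with no overlap. NAPSA in PC-9 overlapped, as did SFTPB in EBC-1 and HCC827.

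IGFBP3 and IGFBP6, the members whose changes agreed in EBC-1 and parted in HCC827, have the following promoter windows, at chr7:45921273-45921522 on the minus strand for IGFBP3 and chr12:53097417-53097666 on the plus strand for IGFBP6 (RefSeq, GRCh38.p14). Capitals mark the same GC box letters.
IGFBP3: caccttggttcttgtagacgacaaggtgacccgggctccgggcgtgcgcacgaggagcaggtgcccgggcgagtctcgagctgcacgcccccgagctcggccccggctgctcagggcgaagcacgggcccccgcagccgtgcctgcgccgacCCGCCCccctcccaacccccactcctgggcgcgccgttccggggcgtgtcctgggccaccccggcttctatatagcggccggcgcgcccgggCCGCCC
IGFBP6: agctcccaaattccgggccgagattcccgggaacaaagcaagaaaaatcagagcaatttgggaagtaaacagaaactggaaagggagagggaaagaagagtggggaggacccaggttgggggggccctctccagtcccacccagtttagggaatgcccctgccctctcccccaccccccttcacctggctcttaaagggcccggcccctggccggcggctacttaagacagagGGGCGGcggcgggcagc
The IGFBP3 window was 76.0% G or C, against a mean of 57.2% over all windows, with 2 GC boxes at 98 and 6 bases before the start and TATANA matches at 32 and 30 bases before it. The IGFBP6 window was 61.2% G or C, with 1 GC box at 17 bases before the start and no TATANA match. Neither held TGANTCA.

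IGFBP3 (ENSG00000146674, chr7:45912245-45921874, minus strand), the main carrier of IGFs in blood, fell in EBC-1 and HCC827 by a like amount. EBC-1 held 116, 129 and 122 FPKM in nc and 72.3, 74.3 and 84.8 FPKM in shSYK. HCC827 held 78.7, 75.4 and 84.6 FPKM in nc and 50.7, 52.1 and 48.7 FPKM in shSYK. All shSYK libraries lay below all nc libraries in both lines. The shSYK mean was 63.1% of nc in EBC-1 (log2 change -0.66, SE 0.081, 95% CI -0.85 to -0.47, limma adjusted p = 0.000918) and 63.5% of nc in HCC827 (-0.64, SE 0.060, 95% CI -0.78 to -0.50, limma adjusted p = 0.000422). The EBC-1 change minus the HCC827 change was -0.014 (SE 0.10, 95% CI -0.23 to 0.21, limma adjusted p = 0.927), an interval that still leaves room for a modest difference.

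PC-9, the line with the most IGFBP3 mRNA, did not share that reduction. Its nc libraries held 575.8, 553 and 519.9 FPKM and its shSYK libraries 509, 666 and 534 FPKM, so the groups overlapped and the shSYK mean was 104% of nc, or 106% without nc replicate 1. Leaving out single libraries moved the PC-9 value of IGFBP3 between -0.074 and 0.12 on the log2 scale. IGFBP1 (ENSG00000146678, chr7:45888357-45893668, plus strand) lies 18576 bases from IGFBP3.

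IGFBP1, a liver product that insulin represses, was a minor member with 0 to 2 reads in EBC-1. HCC827 held 3.43, 4.12 and 3.93 FPKM in nc and 5.69, 4.78 and 4.32 FPKM in shSYK, from 41 to 94 reads per library. The groups did not overlap, yet the change of 0.29 (SE 0.10, 95% CI 0.057 to 0.53) missed the threshold (limma adjusted p = 0.0545). PC-9 held 1.54, 2.34 and 2.79 FPKM in nc and 2.70, 1.68 and 2.68 FPKM in shSYK. The groups overlapped, and the shSYK mean was 106% of nc with all libraries and 91.8% without nc replicate 1.

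IGFBP6 (ENSG00000167779, chr12:53097436-53102345, plus strand), which binds IGF2 in preference to IGF1, fell in EBC-1 and rose in HCC827. EBC-1 held 149.5, 129 and 159 FPKM in nc and 88.3, 103 and 96.1 FPKM in shSYK. HCC827 held 5.73, 5.13 and 5.66 FPKM in nc and 16.6, 10.4 and 11.5 FPKM in shSYK, from 53 to 212 reads per library. Neither line had overlapping groups, and the level in HCC827 was far lower throughout. The shSYK mean was 65.8% of nc in EBC-1 (log2 change -0.60, SE 0.097, 95% CI -0.82 to -0.37, limma adjusted p = 0.00281) and 2.33-fold that of nc in HCC827 (1.06, SE 0.15, 95% CI 0.71 to 1.41, limma adjusted p = 0.00196). The EBC-1 change minus the HCC827 change was -1.66 (SE 0.19, 95% CI -2.08 to -1.24, limma adjusted p = 8.52e-05). Of the 3 members tested for this difference, IGFBP6 alone passed, where 30% of 10691 genes did.

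The change of IGFBP6 in PC-9 depended on which library was left out, from -0.30 to 0.14 on the log2 scale over single omissions. The nc libraries held 104, 56.0 and 70.7 FPKM and the shSYK libraries 67.3, 64.6 and 77.3 FPKM. The shSYK mean was 90.7% of nc with all libraries and 110% without nc replicate 1, and the groups overlapped in both cases.

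IGFBP4 (ENSG00000141753, chr17:40443461-40457731, plus strand), an inhibitor of IGF action that the protease PAPPA cleaves, was the most abundant member of EBC-1 and did not move there by the test. EBC-1 held 358, 268 and 382 FPKM in nc and 368, 374 and 318 FPKM in shSYK, with the groups overlapping (log2 change 0.086, 95% CI -0.23 to 0.40, limma adjusted p = 0.631). In HCC827, nc held 10.8, 11.6 and 13.5 FPKM and shSYK 10.8, 8.12 and 7.37 FPKM. There the shSYK mean was 73.5% of nc and IGFBP4 narrowly passed (log2 change -0.42, SE 0.14, 95% CI -0.73 to -0.099, limma adjusted p = 0.0455), although shSYK replicate 1 lay within the nc range. The call for IGFBP4 in HCC827 was lost in 11 of 15 alternative analyses, with the adjusted p ranging from 0.00728 to 0.138. The EBC-1 change minus the HCC827 change was 0.50 (95% CI 0.050 to 0.95, limma adjusted p = 0.0875).

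PC-9 held 115, 66.8 and 84.1 FPKM of IGFBP4 in nc and 52.7, 55.7 and 61.3 FPKM in shSYK, all shSYK libraries below all nc libraries. The shSYK mean was 63.8% of nc, and 74.99% without nc replicate 1, still with no overlap.

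IGFBP7 (ENSG00000163453, chr4:57030773-57110385, minus strand), a distant relative with weak IGF binding that is abundant in endothelium and fibroblasts, was found in EBC-1 alone. There it stood at 3.76, 2.79 and 3.95 FPKM in nc and 2.32, 3.50 and 2.25 FPKM in shSYK, from 59 to 100 reads per library. The groups overlapped, and the change of -0.29 (95% CI -0.66 to 0.073) missed the threshold (limma adjusted p = 0.165). In PC-9 no library had more than 1 read and in HCC827 none had more than 2. The annotated span of IGFBP7 overlaps POLR2B, IGFBP7-AS1 and UBE2CP3, of which the last pair had 0 reads in EBC-1. POLR2B, a subunit of RNA polymerase II, had 588 to 1097 reads there and rose from 8.95 ± 0.844 to 11.8 ± 0.661 FPKM (limma adjusted p = 0.0103). Whether reads of POLR2B were counted to IGFBP7 was not tested.

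Summed over the 7 genes, IGFBP mRNA was lower in HCC827 shSYK, at 88.2, 79.8 and 76.0 FPKM against 127, 121 and 137 FPKM in nc, 63.4% of the nc mean with no overlap. In EBC-1 the sum was 607 ± 71.4 FPKM in nc and 529 ± 26.7 FPKM in shSYK (n = 3 each), and in PC-9 783 ± 75.1 and 725 ± 79.2 FPKM. Both overlapped. The PC-9 shSYK sum was 92.6% of nc, and 98.0% without nc replicate 1. The make-up of the sum also shifted. In EBC-1, IGFBP4 went from 55.0% to 66.7% of the sum while IGFBP6 went from 24.1% to 18.2% and IGFBP3 from 20.4% to 14.6%. In PC-9, IGFBP3 went from 70.4% to 78.4%, IGFBP4 from 11.2% to 7.85% and IGFBP5 from 5.77% to 1.59%. Without nc replicate 1 the PC-9 nc shares of these genes were 72.5%, 10.2% and 6.12%. In HCC827, IGFBP2 went from 21.4% to 5.23% and IGFBP6 from 4.29% to 15.7%, while IGFBP3 stayed the leading member at 62.0% and 62.3%. These shares are of FPKM, which corrects for gene length, and carry no test.

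**Figure D3:**
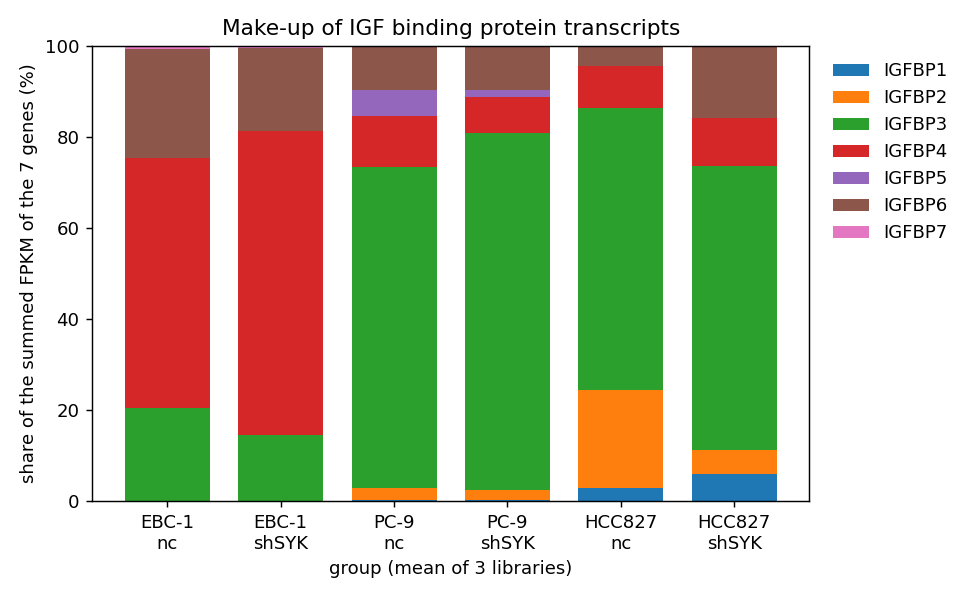
Share of each IGFBP gene in the summed FPKM of the 7 genes (vertical axis, %), as the mean of 3 libraries for each of the 6 groups. IGFBP4 leads in EBC-1 and IGFBP3 in PC-9 and HCC827. The IGFBP2 band of HCC827 narrows from 21.4% to 5.23% with shSYK and the IGFBP6 band widens from 4.29% to 15.7%.

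The order of IGFBP4 and IGFBP6 turned over in both EGFR-mutant lines. In HCC827, IGFBP4 was above IGFBP6 in 3 of 3 nc libraries, with FPKM ratios of 1.88 to 2.38, and in 0 of 3 shSYK libraries, with ratios of 0.643 to 0.778. In PC-9 it was above in 3 of 3 nc libraries, at ratios of 1.11 to 1.19, and in 0 of 3 shSYK libraries, at 0.783 to 0.862. In EBC-1, IGFBP4 stayed above IGFBP6 in every library, at 2.08 to 2.40 in nc and 3.31 to 4.17 in shSYK. IGFBP6 and IGFBP3 were neighbours in the EBC-1 order, with IGFBP6 above in all 6 libraries but level in 1 nc library, at 129 FPKM each.

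The partners of the IGFBPs were examined as a list of 31 further genes of the IGF axis. In EBC-1, 17 of the 31 reached the minimum level, of which 4 rose and 5 fell, and in HCC827, 16 did, of which 3 rose and 3 fell. These counts compare with 23.1% higher and 21.6% lower over all genes in EBC-1, and 17.2% and 20.7% in HCC827. The median change was -0.19 in EBC-1 and -0.17 in HCC827. In PC-9, 14 reached the minimum, and 7 of them had shSYK libraries wholly below nc and 0 wholly above, beside 12.3% and 11.4% of all genes. Without nc replicate 1 these counts were 7 and 2, beside 18.5% and 22.8% of all genes.

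IGF ligand mRNA was nearly lacking. IGF1 and INS had at most 2 reads in any library, and IGF2 reached the minimum in EBC-1 alone, at 1.22 ± 0.0888 FPKM in nc and 0.841 ± 0.104 FPKM in shSYK (n = 3 each, limma adjusted p = 0.0778). The receptors IGF1R, IGF2R and INSR each had shSYK libraries wholly below nc in all 3 lines, but passed the test in few cases. Of all genes, 12.3% lay wholly below nc in PC-9. That share was not computed for EBC-1 and HCC827, so nothing is read from the overlap of the receptors. IGF2R, which clears IGF2 and carries lysosomal enzymes, fell in HCC827 to 80.8% of nc (log2 change -0.29, limma adjusted p = 0.00886) and in EBC-1 to 87.3% (-0.19, limma adjusted p = 0.0338). The IGF2R call in EBC-1 was lost in 8 of 15 alternative analyses. INSR, the insulin receptor, stood at 68.7% of nc in EBC-1 (limma adjusted p = 0.0572), 62.4% in HCC827 (limma adjusted p = 0.0503) and 66.3% in PC-9 (63.3% without nc replicate 1). IGF1R, the signalling receptor for both IGFs, stood at 91.3%, 87.5% and 78.2% of nc in EBC-1, HCC827 and PC-9, with limma adjusted p values of 0.401 and 0.126 in EBC-1 and HCC827. Without nc replicate 1, IGF1R in PC-9 was 75.5% of nc. With libraries rescaled to TPM, the change of IGF1R in EBC-1 was -0.00046. On recovered reads (limma-voom) INSR in EBC-1 and INSR in HCC827 did pass, at limma adjusted p = 0.00357 and 0.00558.

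Among the adaptors that couple these receptors to PI3K and RAS signalling, SHC1 alone passed, in HCC827, at 87.7% of nc (log2 change -0.19, limma adjusted p = 0.0378), a call lost in 11 of 15 alternative analyses. IRS1, the main insulin receptor substrate, stood at 8.10, 6.90 and 8.29 FPKM in PC-9 nc and 4.11, 4.28 and 4.62 FPKM in PC-9 shSYK, 55.9% of nc with no overlap, and 57.1% without nc replicate 1. It overlapped between groups in EBC-1 and HCC827. IRS2 stood at 76.2% of nc in PC-9 (80.4% without nc replicate 1) and 155% in HCC827 (limma adjusted p = 0.0603).

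Of the genes that control IGFBP cleavage, STC1 and STC2 moved in opposite directions in EBC-1 and HCC827. They encode stanniocalcins, secreted inhibitors of the protease PAPPA. STC1 rose in EBC-1 from 2.93 ± 0.512 to 6.36 ± 0.544 FPKM (log2 change 0.91, limma adjusted p = 0.000911) and fell in HCC827 from 6.54 ± 0.593 to 4.47 ± 0.553 FPKM (-0.46, limma adjusted p = 0.00751). STC2 did the reverse, with a fall in EBC-1 from 158 ± 11.2 to 117 ± 0.747 FPKM (-0.43, limma adjusted p = 0.00272) and a rise in HCC827 from 32.3 ± 0.888 to 40.1 ± 1.83 FPKM (0.30, limma adjusted p = 0.00511). PAPPA and PAPPA2 themselves stayed under 1 FPKM in every library. ADAM9, a membrane protease reported to cleave IGFBP5, rose in EBC-1 to 141% of nc (limma adjusted p = 0.0092). HTRA1, a secreted protease that cleaves IGFBPs, rose there from 0.873 to 1.51 FPKM (limma adjusted p = 0.0335), a call lost in 6 of 14 alternative analyses.

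TMEM219, the membrane receptor for IGFBP3, fell in EBC-1, as IGFBP3 did, from 15.4 ± 1.08 to 8.37 ± 0.622 FPKM, 54.2% of nc (log2 change -0.81, limma adjusted p = 0.000429). It stood at 84.3% of nc in HCC827 (limma adjusted p = 0.052) and 106% in PC-9, where without nc replicate 1 it was 119.5% with no overlap. CTGF and CYR61, matricellular proteins that share the N-terminal IGFBP domain, parted between lines as IGFBP6 did. CTGF fell in EBC-1 from 7.53 ± 0.280 to 3.13 ± 0.230 FPKM (-1.05, limma adjusted p = 0.000115) and rose in HCC827 from 1.08 ± 0.365 to 4.22 ± 0.347 FPKM (1.34, limma adjusted p = 0.000573). These mRNA values differ from the CTGF protein in the study. Its immunoblots show CTGF raised by SYK knockdown in EBC-1 and PC-9 and little changed in HCC827. CYR61 fell in EBC-1 to 54.1% of nc (limma adjusted p = 0.000116) and rose in HCC827 to 141% (limma adjusted p = 0.0396), the latter lost in 6 of 15 alternative analyses. NOV, of the same group, rose in EBC-1 from 1.25 to 2.13 FPKM (limma adjusted p = 0.00598).

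**Figure D4:**
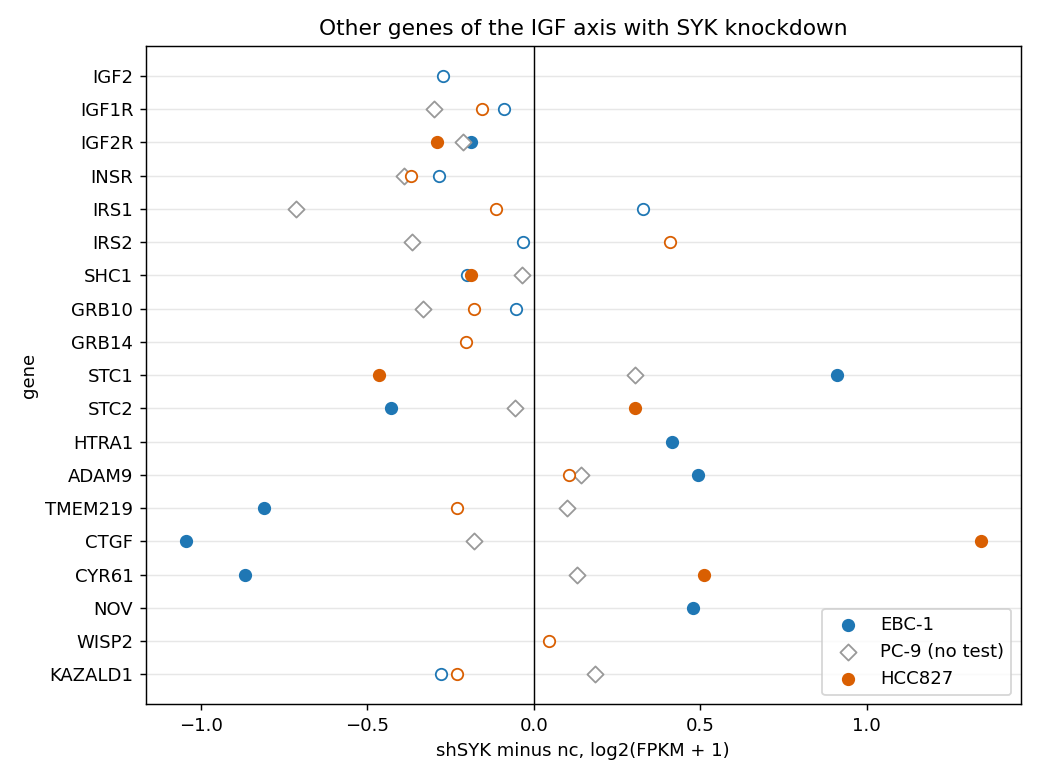
Change of the other IGF axis genes that reached the minimum level, as shSYK minus nc on the log2(FPKM + 1) scale. Blue circles are EBC-1 and orange circles HCC827, filled where the adjusted p was under 0.05, and grey diamonds are PC-9 values with no test. The receptors IGF1R, IGF2R and INSR lie left of zero in every line, whereas STC1, STC2, CTGF and CYR61 lie on opposite sides in EBC-1 and HCC827.

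Across the 18 libraries, the genes whose log2(FPKM + 1) was most like that of each member had Pearson correlations close to 1, which mostly describe the differences between the 3 cell lines. IGFBP5 was most like PECAM1 (r = 0.998), BCAS1 (0.996) and LGALS9B (0.996). IGFBP2 was most like PTAFR, CORO2A and BPNT1 (0.977 to 0.986), and IGFBP3 most like PLTP, PLEKHG6 and CBX7 (0.988 to 0.989). IGFBP4 was most like SAMHD1, GNG11 and RILPL2 (0.992 to 0.993), and IGFBP6 most like TBC1D16, MAPK8IP3 and TMEM158 (0.978 to 0.986). IGFBP1 was most like GJC1, JCAD and NKX1-2 (0.984 to 0.99), and IGFBP7 most like KCNH2, CDH4 and WSCD1 (0.993 to 0.996). These correlations are a description over libraries that share a cell line and carry no test.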

How the data were processed

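RNA was extracted with TRIzol and sequenced on Illumina instruments. The submitters' processing notes name CASAVA and HISAT2, and the study gives hg38 as the genome; the counting program and annotation release are not given in the sources used here. The values deposited by the authors are FPKM per gene, 1 table per cell line, with gene names, positions and lengths. Multiplied by gene length, the FPKM values of a library were whole multiples of 1 read in 100% of cases (largest deviation 3.038e-05), so reads per library could be recovered.

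Genes were kept for testing where their FPKM averaged 1 or more in a line, and tested on log2(FPKM + 1), a scale that understates changes of low genes, with limma 3.58.1 in R 4.3.3 (moderated test with variance trend, two-sided, Benjamini-Hochberg over all genes tested, threshold 0.05). Tests stayed within a table, apart from the difference of the EBC-1 and HCC827 changes over 12 libraries. PC-9 was not tested. With 3 against 3 libraries an exact permutation test cannot go below 0.1. The script was tested on simulated data. Tables and figures were made with Python 3.11.15.

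The members, the lists and the tests were chosen with earlier results of these data known. The text names the 7 members, SYK, IGF axis genes past the threshold or at a group mean of at least 10 FPKM (the ligands, IGF1R, INSR and PAPPA genes fall outside this rule and were named for their role after their values were seen), and the 3 genes most like each member by Pearson's r. Alternatives were the pseudocount (0.1), the filter (none, or 5 FPKM), TPM and quantile scaling, no variance trend, limma-voom on recovered reads, a replicate block, a 2-fold minimum, spread over all 18 libraries, and leaving out each library. Replicates differed beyond sampling noise in every pair (chi-square per degree of freedom 2.11 to 38.7). Promoters are from RefSeq (GRCh38.p14). Confidence intervals are from limma and reflect the spread between libraries, and floors cover counting error only. PC-9 values of further genes and of the family sum were also taken without nc replicate 1, an alternative chosen after seeing the data.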

Additional observations from a re-analysis of the deposited data

Results flagged for a closer look

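The change with shSYK differed between EBC-1 and HCC827, by a limma test of the difference itself over 12 libraries, for IGFBP6, SYK and 6 of the 14 other IGF axis genes tested, where 30% of all 10691 genes did. The EBC-1 change minus the HCC827 change of IGFBP6 was -1.661 on the log2(FPKM + 1) scale (limma adjusted p = 8.52e-05). IGFBP6 was lower in 3 of 3 EBC-1 shSYK libraries and higher in 3 of 3 HCC827 shSYK libraries than in any nc library of the same line. The share of all genes that separate in this way was not computed, so nothing is read from that separation. The difference ranged from -1.84 to -1.47 over 20 alternatives.

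Among the other genes the same difference was 1.375 for STC1 (limma adjusted p = 6.21e-05) and -0.7303 for STC2 (limma adjusted p = 9.7e-05). It was -2.388 for CTGF (limma adjusted p = 1.8e-06) and -1.379 for CYR61 (limma adjusted p = 0.000221). It was -0.5797 for TMEM219 (limma adjusted p = 0.00293) and 0.3866 for ADAM9 (limma adjusted p = 0.0313), the last lost in 13 of 20 alternatives. For SYK itself it was 0.4921 (limma adjusted p = 0.0124), the knockdown being shallower in EBC-1, and the part of that in the other differences was not tested.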

How the results depend on the processing

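Requiring a 2-fold change left 0 of the 2 calls in EBC-1 and 2 of the 4 in HCC827 (IGFBP2 and IGFBP6). The share of all genes called with that minimum was not computed. Leaving out single libraries gave 2 to 3 calls in EBC-1, 3 to 4 in HCC827 and 1 to 2 members whose change differed between these lines. Over all genes these omissions called from 3761 of 12448 to 6309 of 12409 in EBC-1. In HCC827 they called from 3362 of 11979 to 3949 of 12015, and for the difference from 2596 of 10699 to 3723 of 10687. The count of members whose change differed was 1 as reported. It was 2 with no filter on low FPKM, which tests members that 1 of the lines hardly expresses. It was also 2 with TPM scaling, with quantile scaling and without HCC827 shSYK replicate 1, which each added IGFBP4. Without that library the difference of IGFBP4 was 0.65 (limma adjusted p = 0.0285). IGFBP7 in EBC-1 passed without shSYK replicate 2 (limma adjusted p = 0.0443), and IGFBP4 in EBC-1 passed under quantile scaling (0.30, limma adjusted p = 0.0324). IGFBP1 in HCC827 passed under TPM and without shSYK replicate 3 (limma adjusted p = 0.0444 and 0.0405). In both lines IGFBP3 and IGFBP6, and for HCC827 also IGFBP2, kept their calls in all 15 alternatives that had no 2-fold minimum. TPM scaling moved the median of all EBC-1 genes to 0.12 on the log2 scale. Of 1261 alternative values of single genes, 1159 kept their side of the threshold or, where there was no test, moved by less than the replicate spread, 55 lost a call, 35 gained one, 12 values with no test moved and 0 calls reversed. In PC-9, leaving out single libraries turned the sign of IGFBP1, IGFBP3 and IGFBP6. It also turned the sign of IGFBP4 in EBC-1, which was not called.

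Replicate numbers gave no steady pairing of the samples. The correlation of deviations between nc and shSYK libraries of the same number was 0.0343, -0.165 and -0.219 for the EBC-1 numbers. For those of HCC827 it was 0.00165, 0.0627 and 0.0242. For those of PC-9 it was -0.0529, 0.325 and -0.121, while nc replicate 1 and shSYK replicate 3 of PC-9 reached 0.383. A replicate block gave 2 calls among the members in EBC-1, 3 in HCC827 and 1 for the difference, and 7 and 6 in the IGF axis list. Over all genes the block called 4326 of 12430 in EBC-1, 4111 of 11999 in HCC827 and 2462 of 10691 for the difference.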
